A study of Caenorhabditis elegans with 24 samples.

Results

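The *flp* and *nlp* genes of *Caenorhabditis elegans* were followed across 4 genotypes of whole L4 larvae. A gene belonged to the set when its WormBase symbol was *flp* or *nlp* with a number, outside *nlp-24* to *nlp-34*, and when at least 1 of the 8 RNA-seq libraries held 20 or more reads. Of 46508 gene rows, 91 carried such a symbol, and 79 reached the read minimum (30 *flp* and 49 *nlp* genes). The other 12 (*flp-23* and 11 *nlp* genes) had at most 13 reads in any library. Of the 79, 65 held 20 or more reads in every library.

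Neuropeptides are short signalling peptides cut from longer precursor proteins. The precursors are packed into dense core vesicles, cleaved after basic residues, trimmed and often amidated at the C terminus, and the released peptides act mostly on G protein-coupled receptors. *flp* genes encode FMRFamide-related peptides, which end in arginine and phenylalanine, and *nlp* genes encode the remaining, more varied neuropeptide-like proteins. In worms both families are known from neurons that control feeding, egg laying, movement and sleep, and some members are made in the gut or the skin.

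The libraries came from the *set-9 set-26* double mutant, the *set-26*(tm2467) mutant, the *set-9*(rw5) mutant and the N2 wild type, with 2 libraries each. *set-9* and *set-26* are closely related paralogs whose proteins carry a PHD and a SET domain. *set-9*(rw5) was made by genome editing and carries a premature stop, tm2467 is a deletion, and the double mutant was kept over a balancer chromosome. The labels do not give the generation of the double mutant worms, nor whether the 2 libraries of a genotype came from separate cultures, so that p-values measure only the spread between these libraries. In whole worms, fewer cells of a type and less RNA per cell cannot be told apart.

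The libraries held 16363189 to 26187811 reads in genes, of which 0.119 to 0.144% fell in the 79 neuropeptide genes. *set-9* itself had 30.5 and 32.9 CPM (TMM-scaled reads in genes per 1000000) in the double mutant, 115 and 107 in *set-26*, 46 and 39.8 in *set-9* and 90.3 and 91.3 in N2, so both genotypes that carry rw5 lay lowest. *set-9* and *set-26* share long stretches of sequence, and reads may be assigned to either, and *set-26* itself was not analysed here. All 12 pan-neuronal markers were tested, with a median of 21.8 CPM in N2. The whole-worm libraries also differed in markers of other tissues and of stage. 10 molting genes summed to 8837 and 8852 CPM in the double mutant, 5261 and 5737 in *set-26*, 5376 and 7047 in *set-9* and 11610 and 15890 in N2. 36 sperm genes, 33 of them tested, summed to 1081 and 1107 CPM in the double mutant, 543.7 and 336.9 in *set-26*, 318.5 and 150.4 in *set-9* and 748.3 and 319.3 in N2. 8 pharynx markers summed to 574.3 and 491.5 CPM in the double mutant and to between 1014 and 1228 CPM in the other 6 libraries. *myo-1* and *myo-2* made most of that sum. Against *set-9*, 4 of the 8 were called lower in the double mutant and 1, *phat-1*, higher (11.7% and 14.2% of all genes were). The part of these differences in the neuropeptide results was not tested.

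The coding sequences of the precursors were searched for peptide cassettes. A cassette of codons for arginine, phenylalanine and glycine followed by lysine or arginine, the signature of an amidated RFamide peptide, was read from the longest coding sequence of each gene. It occurred in 28 of 30 *flp* genes and in 0 of 49 *nlp* genes, against 178 of 19973 coding genes (0.891%). *flp-21* and *flp-33* lacked it. As *flp* genes are named for FMRFamide-related peptides, the split between the families follows from the naming. The median was 2 cassettes per *flp* gene, *flp-13* had the most with 9, and 20 of the 21 coding genes with 2 or more cassettes were *flp* genes of the set. A second cassette had codons for glycine, any residue, arginine, proline, glycine or alanine, and then lysine or arginine. With glycine before the last residue, it marks precursors of RPamide peptides, which act on relatives of the gonadotropin-releasing hormone receptor. The form with alanine was counted with it. Either form occurred in 19 coding genes (0.0951%), among them *nlp-2* with 5 copies, *nlp-23* with 2 and *nlp-22* with 1. A match is a description of the coding letters only.

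The following stretches of coding sequence are shown because 3 of the 6 genes called, *flp-28*, *nlp-2* and *nlp-23*, lie in 2 small clusters of the X chromosome, next to genes that were not called. All lie on the minus strand of the WBcel235 assembly (RefSeq sequence) and are written 5′ to 3′ in the sense of the gene, with the cassettes up to lysine or arginine in capitals. *flp-28* (chrX:10087801-10087892, with an intron of 56 bases left out), *flp-3* (chrX:10092438-10092557) and *flp-2* (chrX:10094904-10094939) carry RFamide cassettes.
flp-28: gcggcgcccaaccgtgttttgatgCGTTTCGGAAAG
flp-3: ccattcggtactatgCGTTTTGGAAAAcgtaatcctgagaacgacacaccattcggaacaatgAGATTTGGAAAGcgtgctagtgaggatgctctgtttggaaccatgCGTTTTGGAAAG
flp-2: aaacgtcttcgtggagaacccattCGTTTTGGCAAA

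*nlp-2* (chrX:2344119-2344268), *nlp-23* (chrX:2342551-2342634) and *nlp-22* (chrX:2341401-2341442) carry the second cassette. The first cassette of *nlp-23* as written has the form with alanine, and the others shown have glycine.
nlp-2: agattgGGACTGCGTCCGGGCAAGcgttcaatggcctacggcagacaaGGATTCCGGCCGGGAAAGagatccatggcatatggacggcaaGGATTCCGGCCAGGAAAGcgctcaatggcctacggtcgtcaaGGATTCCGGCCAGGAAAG
nlp-23: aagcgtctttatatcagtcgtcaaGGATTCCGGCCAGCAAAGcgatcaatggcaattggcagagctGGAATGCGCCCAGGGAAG
nlp-22: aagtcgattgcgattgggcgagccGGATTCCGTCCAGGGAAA
*flp-3* shows 3 of its 8 cassettes, *flp-2* 1 of 2 and *nlp-2* 4 of 5. Their RNA levels are given below with those of the larger genes that surround them.

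The X chromosome held 29 of the 79 (36.7%, 13 *flp* and 16 *nlp*), against 13.9% of all 14667 genes tested. Chromosome IV followed with 14, and chromosomes I and III had 8 each. 10 of the 79 lay wholly inside another gene on the opposite strand, with no exon base shared. 16 shared exon bases with a neighbouring gene, over at most 16.8% of their exon length. Whether the authors' counting used strand is not given in the sources used here, so reads from a nested gene and from unspliced RNA of the gene around it cannot be told apart.

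Levels spread widely within the set. In N2, 1 gene lay above 100 CPM, 27 between 10 and 100, 38 between 1 and 10 and 13 below 1 CPM, with a median of 6.37 CPM against 10.2 CPM over all tested genes. The 6 genes with the highest N2 level per exon length took 44.8% of all neuropeptide CPM in N2. *nlp-36* (chromosome III, 9488731 to 9489186) stood first with 601 and 731 CPM per kb of exon in N2. *nlp-12*, which encodes a cholecystokinin-like peptide of the stretch-sensitive neuron DVA, followed with 150 and 166 CPM per kb. Below these, *nlp-20* had 113 and 134, *flp-10*, whose peptide inhibits egg laying through EGL-6, 121 and 118, *nlp-40*, the gut peptide that times defecation, 88.8 and 146, and *nlp-18* 100 and 91.5 CPM per kb in N2. The gap between *nlp-36* and *nlp-12* was wider than the spread of either, while the libraries of *nlp-20*, *flp-10*, *nlp-40* and *nlp-18* overlapped with those of at least 1 neighbour in this order.

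**Figure D1:**
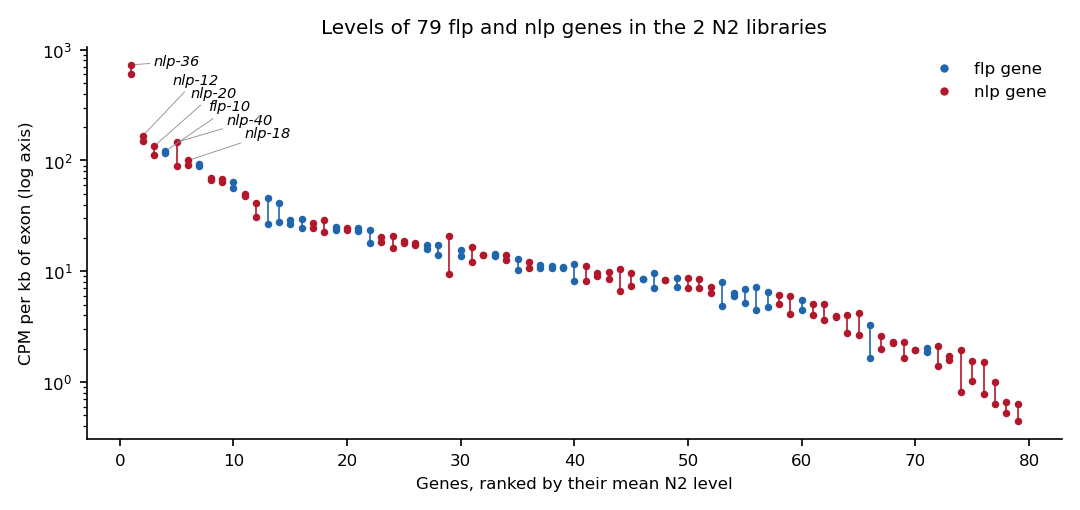
Each of the 79 genes is a pair of points, the CPM per kb of exon (log axis) in the 2 N2 libraries, joined by a line and ranked by the mean, with *flp* genes in blue and *nlp* genes in red. *nlp-36* stands alone near 666 CPM per kb, and the remaining genes fall off without a gap.

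The first question was whether loss of *set-9*, of *set-26* or of both changed neuropeptide RNA relative to N2. Few genes changed. None of the 79 was called in *set-26* or in *set-9*, and 2 were called in the double mutant, the lowered *nlp-36* and the raised *nlp-23*. Calls rest on edgeR's quasi-likelihood test across 14667 genes at a false discovery rate of 5% (Benjamini-Hochberg).

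In *set-9* against N2, 0 of 79 genes were called, where 0.464% of all tested genes were (0.198% higher and 0.266% lower). At an unadjusted p under 0.05, 5 of 79 (6.33%) passed, against 13.3% of all genes, and DESeq2 called 0. The lowest adjusted p among the members was 0.24 (edgeR). In *set-26* against N2, 0 of 79 were called, where 2.39% of all genes were (0.975% higher and 1.42% lower), 9 (11.4%) had an unadjusted p under 0.05 against 16.3% of all genes, and DESeq2 called 1, *nlp-23*. A missed threshold does not show that levels were equal. The 95% interval of the log2 fold change lay between -1 and 1 for 49 genes in *set-9* and for 51 in *set-26*, so that a doubling or halving was excluded by the interval for those and not for the others.

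In the double mutant against N2, 1 of 79 rose and 1 fell, where 4.42% of all genes rose and 5.91% fell. *nlp-36* had 155 and 147 CPM in the double mutant, 184 and 188 in *set-26*, 281 and 279 in *set-9* and 211 and 257 in N2. The double mutant libraries were the lowest of the 8, *set-26* lay between them and N2, and the *set-9* libraries were the highest. The fold change of *nlp-36* in the double mutant against N2 was -0.63 ± 0.12 on the log2 scale (SE, edgeR adjusted p = 0.02, 2 libraries each). It lost the call without N2 replicate 2 (log2 fold change -0.48, adjusted p = 0.078) and without either double mutant library (adjusted p = 0.081 without replicate 1 and 0.12 without replicate 2). In *set-26* against N2 the value was -0.33 and in *set-9* against N2 0.26, and neither passed (edgeR adjusted p = 0.2 and 0.4). 11 exon bases of *nlp-36* overlap *dars-1* on the other strand.

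*nlp-23*, an RPamide gene shown above, had 2.01 and 3.31 CPM in the double mutant, 2.7 and 4.16 in *set-26*, 1.94 and 1.37 in *set-9* and 0.866 and 0.793 in N2. These stand for 38 and 65 reads in the double mutant, 54 and 77 in *set-26*, 35 and 21 in *set-9* and 22 and 14 in N2. All 6 mutant libraries lay above both N2 libraries. The log2 fold change of *nlp-23* was 1.67 ± 0.42 in the double mutant (SE, edgeR adjusted p = 0.048) and 2.03 ± 0.42 in *set-26* (adjusted p = 0.054), and 0.99 in *set-9* (adjusted p = 0.39). The call in the double mutant was lost when any of the 8 libraries was left out (adjusted p between 0.054 and 0.22) and, without N2 replicate 2, stood at adjusted p = 0.16. *nlp-58* was also lowest in N2, at lower depth, with 18 and 23 reads in the double mutant, 22 and 32 in *set-26*, 27 and 15 in *set-9* and 11 and 6 in N2, and passed in none of the comparisons (edgeR adjusted p = 0.12, 0.13 and 0.24 against N2). It was named after its values were seen.

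**Figure D2:**
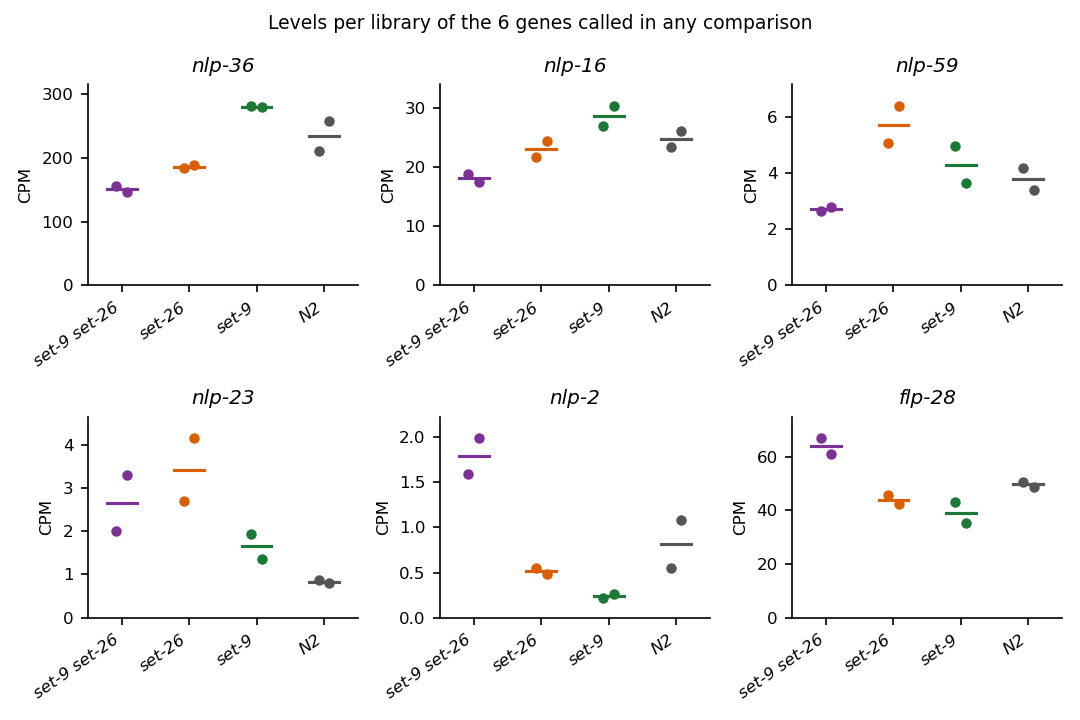
CPM in each library (points, axis from 0) with the mean of the 2 libraries of a genotype (line) for the 6 genes called in any comparison. *nlp-36* and *nlp-16* are lowest in *set-9 set-26*, *flp-28* and *nlp-2* highest in it, *nlp-59* is highest in *set-26* and *nlp-23* lowest in N2.

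The second question was how the double mutant differed from each of the mutants with 1 lesion. Against *set-26*, 1 of 79 rose (5.12% of all genes did) and 1 fell (5.24% did), so that 2.53% of members were called against 10.4% of all genes. 10 members (12.7%) had an unadjusted p under 0.05, against 30.3% of all genes. *flp-28* had 66.8 and 61.1 CPM in the double mutant, 45.5 and 42.2 in *set-26*, 42.9 and 35.3 in *set-9* and 50.5 and 48.7 in N2. Both double mutant libraries exceeded the other 6. *flp-28* rose by 0.54 ± 0.13 on the log2 scale against *set-26* (SE, edgeR adjusted p = 0.039) and lost that call without either *set-26* library (adjusted p = 0.088 without replicate 1 and 0.22 without replicate 2) or either double mutant library (0.16 and 0.12). *nlp-59* had 2.65 and 2.8 CPM in the double mutant, 5.05 and 6.38 in *set-26*, 4.94 and 3.64 in *set-9* and 4.17 and 3.4 in N2. It fell by 1.07 ± 0.27 on the log2 scale against *set-26* (edgeR adjusted p = 0.046), and the call was lost without either *set-26* library (adjusted p = 0.075 and 0.22) or either double mutant library (0.18 and 0.16).

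Against *set-9*, 2 of 79 rose (14.2% of all genes did) and 2 fell (11.7% did). *nlp-36* fell by 0.89 ± 0.12 on the log2 scale (SE, edgeR adjusted p = 0.0034) and was called under all 15 settings tried. *flp-28* rose by 0.71 ± 0.13 (adjusted p = 0.0083) and lost the call only without *set-9* replicate 2 (0.58, adjusted p = 0.058). *nlp-16* had 18.8 and 17.6 CPM in the double mutant, 21.7 and 24.4 in *set-26*, 27 and 30.4 in *set-9* and 23.5 and 26.1 in N2. The double mutant libraries were again the lowest and the *set-9* libraries the highest. *nlp-16* fell by 0.65 ± 0.14 (edgeR adjusted p = 0.014), a call lost without *set-9* replicate 2 (adjusted p = 0.085), double mutant replicate 1 (0.053) or double mutant replicate 2 (0.08). *nlp-2*, with 5 copies of the second cassette, had 30 and 39 reads in the double mutant, 11 and 9 in *set-26*, 4 and 4 in *set-9* and 14 and 19 in N2. It rose by 2.86 ± 0.61 (edgeR adjusted p = 0.014), and the call was lost without *set-9* replicate 1 (adjusted p = 0.058), *set-9* replicate 2 (0.065) or double mutant replicate 2 (0.075). Both *set-9* libraries of *nlp-2* lay under those of the 3 other genotypes.

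In *set-26* against *set-9*, 0 of 79 genes were called, where 0.695% of all genes were (0.443% higher and 0.252% lower). 5 members (6.33%) had an unadjusted p under 0.05, against 14.5% of all genes, and DESeq2 called 1, *nlp-36*. *nlp-36* was lower in *set-26* by -0.59 on the log2 scale (95% interval -0.86 to -0.32, edgeR adjusted p = 0.075).

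The interaction, that is the difference between the effect of *set-9* loss in the *set-26* background and its effect in the wild-type background, was tested in the same fit. It passed with a positive sign for 2 of 79 genes (8.27% of all genes) and with a negative sign for 0 (5.6% of all genes). 12 further genes had a negative value with an unadjusted p under 0.05, and 14 of 79 (17.7%) passed that limit in all, against 30.9% of all genes. For *flp-28* the effect of *set-9* loss was 0.54 in the *set-26* background and -0.34 in the wild-type background, an interaction of 0.89 ± 0.18 (log2, edgeR adjusted p = 0.022). Without N2 replicate 1, *set-9* replicate 2, *set-26* replicate 2 or either double mutant library, it lay between 0.75 and 0.95 and was not called (adjusted p between 0.053 and 0.086). For *nlp-2* the corresponding values were 1.77 and -1.71, an interaction of 3.49 ± 0.83 (adjusted p = 0.034) on 4 to 39 reads per library. Its call was lost when any library other than N2 replicate 1 was left out (adjusted p between 0.07 and 0.11).

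3 of the genes called, *flp-28*, *nlp-2* and *nlp-23*, lie inside larger genes of the X chromosome together with other neuropeptide genes. *nlp-45* (2337600 to 2338310), *nlp-22* (2341359 to 2342089), *nlp-23* (2342391 to 2342959) and *nlp-2* (2343947 to 2344766) lie in *T01B6.1* (2335684 to 2348643). *flp-28* (10087314 to 10087966), *flp-3* (10091946 to 10092964) and *flp-2* (10094430 to 10095245) lie in *W07E11.1* (10084622 to 10104650). Each neuropeptide gene is on the strand opposite to the gene around it (WBcel235).

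Inside *T01B6.1*, *nlp-45* had 34 and 42 reads in the double mutant, 59 and 27 in *set-26*, 19 and 26 in *set-9* and 17 and 18 in N2, and passed in none of the comparisons (log2 fold change 1.23 in the double mutant, edgeR adjusted p = 0.15, and 1.4 in *set-26*, adjusted p = 0.22, against N2). *nlp-22*, known in worms for larval sleep, had 2 and 0 reads in the double mutant, 0 and 0 in *set-26*, 2 and 2 in *set-9* and 0 and 1 in N2, too few to test. *nlp-45* and *nlp-23* were lowest in N2, whereas *nlp-2* was lowest in *set-9*.

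*flp-3* had 8.15 and 8.71 CPM in the double mutant, 10.8 and 9.24 in *set-26*, 9.88 and 10.7 in *set-9* and 10.1 and 9.41 in N2. *flp-2*, whose peptides act in arousal, had 10.8 and 7.64 CPM in the double mutant, 11.7 and 9.46 in *set-26*, 9.49 and 8.65 in *set-9* and 9.64 and 10.5 in N2. Neither rose with *flp-28*: against N2, the double mutant differed by -0.21 (95% interval -0.6 to 0.18) for *flp-3* and by -0.13 (-0.63 to 0.37) for *flp-2* on the log2 scale.

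Of the surrounding genes, *W07E11.1* was called and *T01B6.1* was not. *W07E11.1* had 86.2 and 106 CPM in the double mutant, 40.6 and 39.4 in *set-26*, 34.9 and 31.1 in *set-9* and 42.1 and 50.1 in N2. It rose in the double mutant by 1.06 against N2 (log2, edgeR adjusted p = 0.008), by 1.27 against *set-26* (0.0047) and by 1.54 against *set-9* (0.0015), with an interaction of 1.75 (0.0049). *T01B6.1* had 28.2 and 20.5 CPM in the double mutant, 12 and 13.1 in *set-26*, 12.5 and 14.6 in *set-9* and 13.6 and 25.6 in N2, and passed in none of the comparisons (interaction 1.48, edgeR adjusted p = 0.058). *flp-3* and *flp-2* lie in the same surrounding gene as *flp-28* and were not higher in the double mutant. How many of the reads given to *flp-28*, *flp-3*, *flp-2* or *nlp-2* came from the surrounding gene was not tested.

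**Figure D3:**
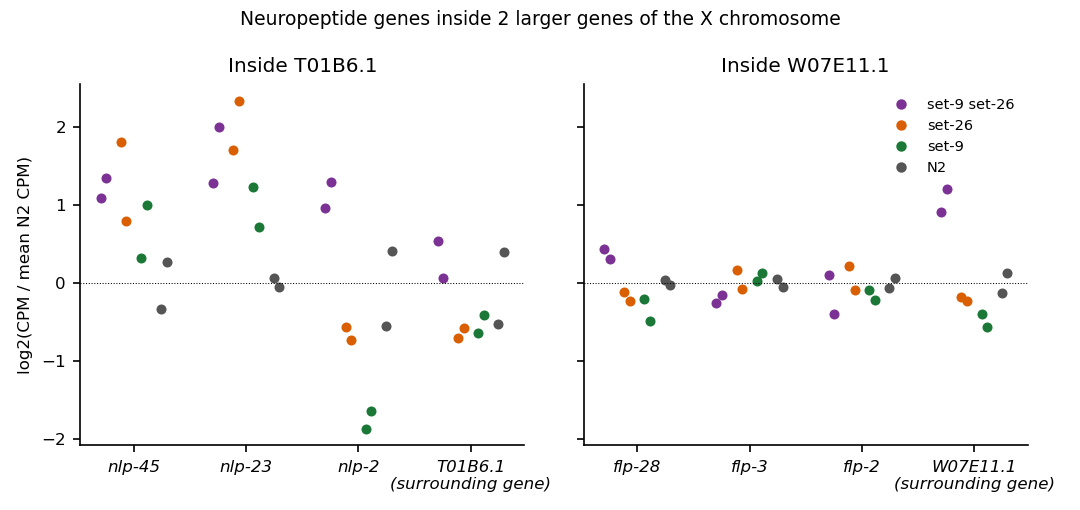
Each point is the log2 of 1 library's CPM over the mean N2 CPM of that gene, for the neuropeptide genes inside *T01B6.1* (left) and *W07E11.1* (right) and for the surrounding gene itself. *flp-28* and *W07E11.1* are highest in both *set-9 set-26* libraries while *flp-3* and *flp-2* are not, and *nlp-2* spans the widest range.

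Members with known roles were then read as groups, none of which held a call in any comparison. Among genes known to act in sleep, *flp-11*, which encodes the peptides of the sleep-promoting neuron RIS, ranged from 18 to 26.8 CPM over the 8 libraries and differed between the double mutant and N2 by -0.05 (log2, 95% interval -0.53 to 0.42). *flp-13*, *flp-24* and *nlp-8* act from the ALA neuron in sleep after cellular stress. *flp-24* had 15.5 and 12.6 CPM in the double mutant, 21.5 and 21.6 in *set-26*, 17 and 20 in *set-9* and 12.4 and 18.4 in N2, and the double mutant libraries did not overlap with those of *set-26* (log2 -0.62, edgeR adjusted p = 0.099). *flp-13* ranged from 4.65 to 7.4 CPM, *nlp-8* from 35.5 to 51.9 and *nlp-14*, another sleep gene, from 19.7 to 30.7. The double mutant differed from N2 by -0.16 for *flp-13*, -0.04 for *nlp-8* and -0.2 for *nlp-14*, and every one of these 95% intervals lay within ±1 log2 unit and included 0.

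Of the egg-laying genes, *nlp-3*, which encodes stimulatory peptides of the HSN neurons, had 13 and 8.3 CPM in the double mutant, 18 and 17.5 in *set-26*, 12.5 and 13.9 in *set-9* and 12.2 and 12.9 in N2. *set-26* was highest, and the double mutant differed from it by -0.73 (edgeR adjusted p = 0.069). The inhibitory *flp-10* and *flp-17* ranged from 59 to 92.7 and from 3.97 to 6.49 CPM, and *nlp-7* from 1.63 to 3.03 CPM. Against N2, the double mutant differed by 0.02 (95% interval -0.39 to 0.42) for *flp-10* and by -0.28 (-0.87 to 0.3) for *flp-17*.

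Of 7 genes that act in movement and arousal, *nlp-12* had 62.8 and 71.5 CPM in the double mutant, 66.6 and 84.7 in *set-26*, 87 and 70.7 in *set-9* and 66 and 73.2 in N2, and all groups overlapped with N2. *nlp-49* ranged from 35.1 to 53.5 CPM, *flp-1* from 11.1 to 18.6, *flp-18* from 3.66 to 6.97 and *flp-21*, a ligand of the receptor NPR-1, from 2.15 to 4.54 CPM. *flp-20* was thinly read, with 24 and 7 reads in the double mutant, 14 and 36 in *set-26*, 3 and 14 in *set-9* and 21 and 29 in N2. Its 95% interval in the double mutant against N2 ran from -2.71 to 1.54, so that smaller differences were not detectable at this depth.

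Of 4 genes of gut and sensory signalling, *nlp-40* had 107 and 117 CPM per kb in the double mutant, 110 and 121 in *set-26*, 106 and 134 in *set-9* and 88.8 and 146 in N2. The N2 libraries enclosed all others. *nlp-1*, a peptide of the olfactory neuron AWC, ranged from 5.75 to 11.3 CPM and was highest in *set-26*, with 8.5 and 11.3 CPM against 5.75 and 7.93 in N2 (log2 0.54, edgeR adjusted p = 0.31). *nlp-9* ranged from 21.3 to 30.8 CPM and *flp-7*, which acts in fat metabolism, from 7.48 to 10.7 CPM, and the double mutant differed from N2 by -0.04 for each.

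Few genes passed alone, but in several comparisons most of the 79 values lay on the same side of 0. The median log2 fold change was 0.2 in *set-26*, 0.08 in *set-9* and -0.04 in the double mutant against N2, where the median of all genes was within 0.01 of 0. 61 of 79 values (77.2%) were positive in *set-26*, 51 (64.6%) in *set-9* and 35 (44.3%) in the double mutant, against 50.7%, 49.3% and 50.5% of all genes. The count in *set-26* fell to 50 positive and 29 negative without *set-26* replicate 1, and to 55 and 24 without *set-26* replicate 2. In the double mutant against *set-26*, the median was -0.22 and 64 of 79 values were negative, and in the double mutant against *set-9* it was -0.12 with 48 negative. Without double mutant replicate 2, the median against *set-9* was -0.02 with 41 negative values and that against *set-26* -0.13 with 54, and without *set-26* replicate 1 the median against *set-26* was -0.14 with 56. The interaction had a median of -0.32 and 63 negative values, and *flp* and *nlp* genes were alike in it, with medians of -0.26 and -0.34. These comparisons share libraries, so their medians are not separate evidence. 29 members in *set-26* lay above both N2 libraries (23.1% of all genes did) and 8 below (22.9%), while the double mutant lay below both *set-26* libraries for 25 members (29.4% of all genes) and above for 5 (32.8%). X-linked and autosomal members had medians of 0.19 and 0.21 in *set-26* against N2, and of -0.22 each in the double mutant against *set-26*.

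**Figure D4:**
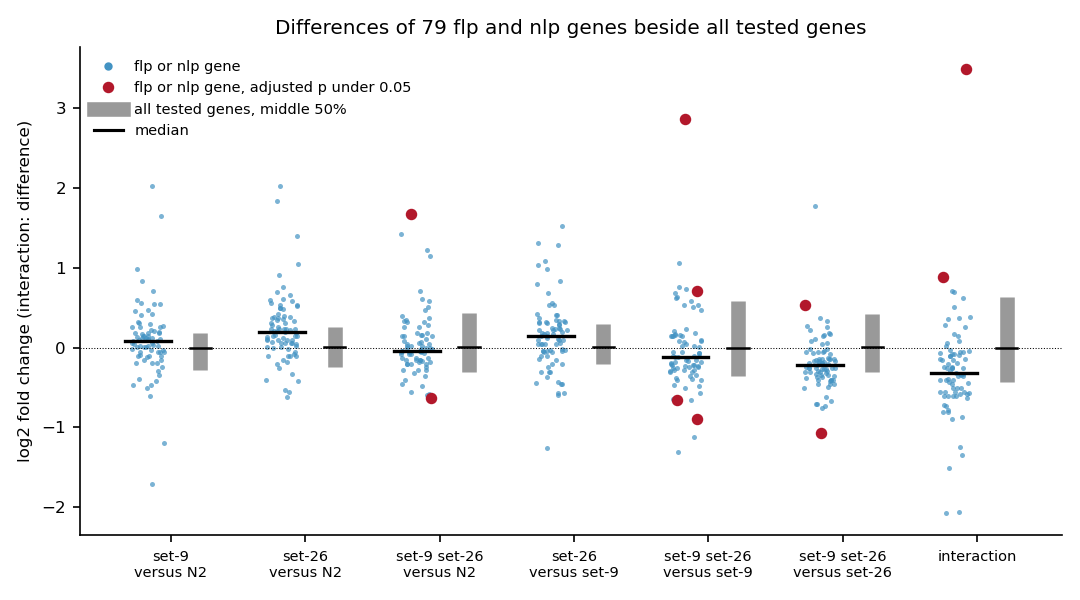
log2 fold changes of the 79 genes in 6 pairwise comparisons and the interaction (blue points, red where the adjusted p was under 0.05, with a line at the median), beside the middle 50% of all 14667 tested genes (grey bar, with a line at their median). The neuropeptide median lies at 0.2 in *set-26* versus N2 and at -0.22 in *set-9 set-26* versus *set-26*, and large changes are few.

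Large differences were few. A log2 fold change beyond 1 in either direction was found for 2.53 to 7.59% of members over the 7 comparisons, against 10.1 to 28.7% of all genes. In the double mutant against N2 the median absolute log2 fold change was 0.17 for members and 0.35 for all genes, with a median SE of 0.24 for both.

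Summed levels stayed close together. The 30 *flp* genes summed to 436 and 382.2 CPM in the double mutant, 439.1 and 408.1 in *set-26*, 398.7 and 402.5 in *set-9* and 385.4 and 412.8 in N2, with all groups overlapping the double mutant. The 49 *nlp* genes summed to 812.5 and 754 CPM in the double mutant, 938.2 and 902.1 in *set-26*, 973.7 and 978.6 in *set-9* and 843.8 and 941.2 in N2, and both double mutant libraries lay under the other 6. *nlp-36* alone makes 147 to 281 CPM of that sum. Without it, the remaining 48 genes summed to 657.4 and 606.8 CPM in the double mutant, 754.5 and 713.9 in *set-26*, 692.5 and 699.1 in *set-9* and 632.3 and 683.9 in N2, so that the double mutant overlapped with N2. The 12 pan-neuronal markers summed to 712.6 and 590.5 CPM in the double mutant, 687.5 and 624.9 in *set-26*, 722.7 and 660.2 in *set-9* and 719.6 and 699.4 in N2. Their median log2 fold change was -0.26 in the double mutant against *set-26*, where 2 of 12 fell (5.24% of all genes did). It was -0.37 against *set-9*, where 4 of 12 fell (11.7% did), and -0.42 in the interaction. Pan-neuronal markers moved in the direction of the neuropeptide genes there, but not alone. Against *set-26*, medians of other lists were -0.74 (pharynx), -0.46 (neurotransmitter), -0.34 (intestine), -0.32 (germline), -0.23 (body wall muscle) and -0.14 (glia). They were positive for hypodermis (0.14), coelomocyte (0.03), molting (0.73), oocyte (1) and sperm (1.14) markers. In *set-26* against N2 the pan-neuronal median was 0.08. The part of a change in neuronal RNA as a whole in the neuropeptide medians was not tested.

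**Figure D5:**
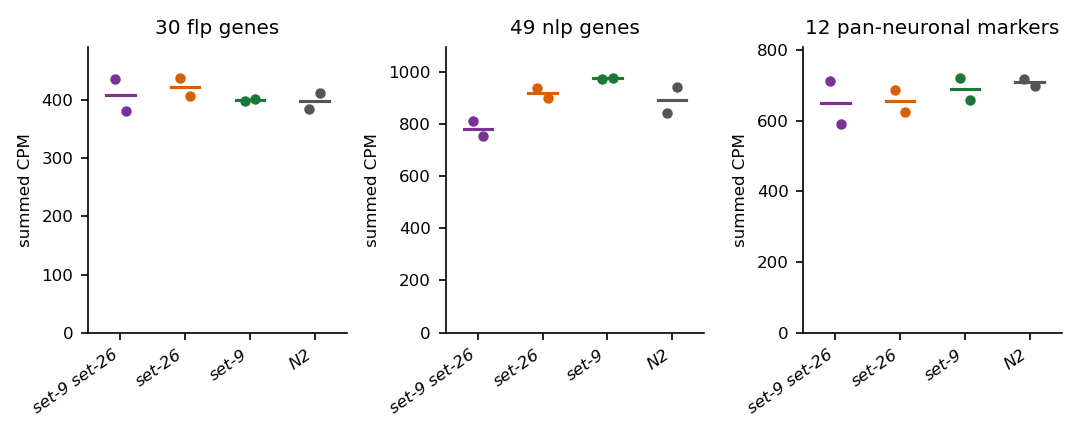
Summed CPM per library (points, axes from 0, line at the mean of 2 libraries) of the 30 *flp* genes, the 49 *nlp* genes and 12 pan-neuronal markers. The *nlp* sum is lowest in both *set-9 set-26* libraries, at 812.5 and 754 CPM, an order lost against N2 without *nlp-36*, and the other sums of *set-9 set-26* overlap with those of every genotype.

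Genes that make, release and sense the peptides were described beside the members. None of 10 processing enzymes, 12 dense core vesicle genes, 69 tested receptors, 21 tested neprilysins and 5 other neuropeptide genes was called in *set-26* against N2, in *set-9* against N2 or in *set-26* against *set-9*. Of all genes, 2.39%, 0.464% and 0.695% were called in these comparisons. Of the processing enzymes, *aex-5*, a proprotein convertase, fell in the double mutant against *set-9*, with 6.57 and 7.54 CPM in the double mutant and 11.2 and 10.3 in *set-9* (log2 -0.6, edgeR adjusted p = 0.036). It had 7.95 and 8.16 CPM in *set-26* and 10.1 and 11.1 in N2. Of the dense core vesicle genes, *unc-104*, the kinesin that carries vesicles down axons, had 17.3 and 15.9 CPM in the double mutant and 36 and 32.1 in *set-9* (log2 -1.04, edgeR adjusted p = 0.0094). It had 17.7 and 26.5 CPM in *set-26* and 22.5 and 23.1 in N2, so that *set-9* was highest. *vps-50*, needed for vesicle maturation, had 1.91 and 2.75 CPM in the double mutant and 8.19 and 5.72 in N2 (log2 -1.58, adjusted p = 0.028). Of the 69 tested receptors, *npr-5* alone was called, and it fell against *set-9* (11.7% of all genes did). *npr-5* had 10.7 and 8.96 CPM in the double mutant and 15 and 15.7 in *set-9* (log2 -0.64, edgeR adjusted p = 0.021). It had 13.5 and 14.4 CPM in *set-26* and 13.5 and 13.1 in N2. *aex-5*, *unc-104* and *npr-5* were called against *set-9* only, where 11.7% of all genes fell. Against N2, where *vps-50* fell, 5.91% of all genes fell.

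Of the other neuropeptide genes, *pdf-2*, which encodes a pigment dispersing factor peptide, had 4.02 and 3.16 CPM in the double mutant, 8.85 and 7.51 in *set-26*, 5.6 and 6.7 in *set-9* and 5.71 and 5.95 in N2. It fell by 1.19 ± 0.22 on the log2 scale against *set-26* (SE, edgeR adjusted p = 0.021), by 0.78 against *set-9* (0.04), and had an interaction of -1.27 (0.037). *pdf-1*, its paralog, had 38.9 and 35 CPM in the double mutant and 47.8 and 54.7 in *set-9* (log2 -0.47, edgeR adjusted p = 0.032). *lury-1* had 1.91 and 2.7 CPM in the double mutant and 0.888 and 0.976 in *set-9* (log2 1.3, adjusted p = 0.044). In N2, *pdf-1* had 45.8 and 45.5 CPM and *lury-1* 1.22 and 1.25, and neither was called against N2. Of all genes in the double mutant, 11.7% fell and 14.2% rose against *set-9*, and 5.24% fell against *set-26*.

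Neprilysins are metallopeptidases of which some degrade neuropeptides outside cells. In the double mutant against *set-9*, 6 of 21 rose (14.2% of all genes did) and 2 fell (11.7% did). *nep-22* had 156 and 165 CPM in the double mutant, 214 and 260 in *set-26*, 318 and 319 in *set-9* and 248 and 276 in N2, and it fell against N2 by 0.71 ± 0.12 (edgeR adjusted p = 0.016), against *set-26* by 0.57 (0.032) and against *set-9* by 0.99 (0.0029). *nep-17* had 1150 and 1360 CPM in the double mutant, 1620 and 1840 in *set-9* and 1530 and 1740 in N2 (log2 -0.47 against *set-9*, edgeR adjusted p = 0.038). *nep-6* had 5.19 and 6.98 CPM in the double mutant, 2.65 and 2.16 in *set-26*, 1.28 and 1.17 in *set-9* and 2.48 and 1.47 in N2, and rose in the double mutant by 1.6 ± 0.34 against N2 (adjusted p = 0.029), by 1.34 against *set-26* (0.047) and by 2.31 against *set-9* (0.0054). The interaction passed with a positive sign for 4 of 21 neprilysins (8.27% of all genes) and with a negative sign for 1 (5.6%). It was -0.85 for *nep-22* (edgeR adjusted p = 0.022) and 2.04 for *nep-6* (0.036). Among the genes named next, it was 2.33 for *nep-23* (0.02), 5.74 for *nep-4* (0.024) and 3.62 for *nep-15* (0.018).

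The neprilysins that rose had low levels. *nep-23* had 12.2 and 12.9 CPM in the double mutant and 3.38 and 1.56 in *set-9* (edgeR adjusted p = 0.004). *nep-15* had 7.04 and 5.91 CPM in the double mutant and 1.61 and 1.17 in *set-9* (adjusted p = 0.014). *nep-13* had 3.87 and 6.36 CPM in the double mutant and 1.61 and 0.781 in *set-9* (adjusted p = 0.028). Each of these was higher in both double mutant libraries. In N2, *nep-23* had 6.45 and 5.84 CPM, *nep-15* 2.64 and 2.15 and *nep-13* 2.72 and 1.59. *nep-4* had 4.34 and 4.02 CPM in the double mutant and 0.666 and 0.456 in *set-9* (adjusted p = 0.037). *nep-9* had 1.91 and 2.65 CPM in the double mutant and 0 in both *set-9* libraries (edgeR adjusted p = 0.038). In N2, *nep-4* had 2.75 and 0.623 CPM and *nep-9* 1.34 and 0. Against N2, *nep-6* alone of the neprilysins was called higher. *nep-4* and *nep-15* also rose against *set-26* (adjusted p = 0.031 and 0.016). The sperm genes named above were high in the same double mutant libraries. Of the 33 tested, 23 were called higher against *set-9* (14.2% of all genes were). The part of the sperm genes in the neprilysin calls was not tested.

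Differences between the 2 libraries of a genotype were taken after 1 CPM was added to each value, which shrinks them at low levels. The median absolute log2 difference was 0.18 in the double mutant, 0.23 in *set-26*, 0.23 in *set-9* and 0.21 in N2 for members, and 0.18 to 0.22 over all genes. By this measure, the widest gap among members with a mean of at least 50 reads belonged to *nlp-67*. It had 36.3 and 17.9 CPM in *set-26* and 22.7 and 10.5 in N2, and replicate 1 was higher in all 4 genotypes. *nlp-81* followed with 2 and 4.38 CPM in *set-26*, then *flp-18* with 3.66 and 6.9 CPM in *set-9*, *flp-15* with 12 and 20.4 CPM in N2 and *nlp-40* in N2.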

How the data were processed

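Ribosome-depleted total RNA of synchronized whole L4 worms was made into 8 libraries with a NuGEN Ovation kit. Whether libraries shared a sequencing lane was not established. The authors trimmed reads, removed rRNA and tRNA reads with Bowtie, aligned the rest with TopHat2 to the WS250 genome and deposited expected counts per gene from Cufflinks, of which 52.3% of nonzero values were whole. Strand use and tool versions are not given in the sources used here. 16 ChIP libraries were not analysed here.

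Expected counts were rounded. 93 genomic landmark rows (0.219 to 0.277% of reads) were left out, and 14667 genes with 20 reads in at least 1 library were fitted in edgeR 4.0.16 (R 4.3.3) with TMM scaling and 1 mean per genotype over all 8 libraries (glmQLFit, glmQLFTest), with a Benjamini-Hochberg false discovery rate of 5%. The common biological coefficient of variation was 0.206. SE was the absolute log2 fold change over the square root of F, and the fit was tested on simulated data. CPM are TMM-scaled; 3 reads make 0.118 to 0.195 CPM. Levels per kb use the union of exons of the Ensembl 115 annotation of WBcel235. A table of WormBase IDs and symbols named 43184 of 46508 IDs. Counting error only sets a lower limit on the spread. Alternatives were RLE and upper quartile scaling, DESeq2 1.42.0, 2 other filters, a replicate block, fits to the compared libraries alone and leaving out each library.

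The members and all gene lists were chosen with earlier results of these data known. Genes named are every called member, the 6 highest in N2 per exon length, the 5 with the widest replicate ratio (1 CPM added) at a mean of at least 50 reads, role list members and called genes of the pathway lists. Other exceptions are marked. Of the remaining marker lists, in the double mutant against N2, 4 of 7 intestine, 1 of 7 hypodermis, 0 of 5 muscle, 1 of 3 glia, 0 of 2 coelomocyte, 0 of 7 germline, 0 of 6 oocyte and 0 of 12 neurotransmitter genes fell and 0 of each rose, 4 of 8 pharynx and 4 of 10 molting genes fell, and 2 of 33 sperm genes rose. Of all genes tested, 5.91% fell and 4.42% rose in that comparison.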

Additional observations from a re-analysis of the deposited data

Results flagged for a closer look

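For 2 neuropeptide genes the estimated effect of *set-9* loss had opposite signs in the *set-26* and the wild-type background, and the interaction term of edgeR's quasi-likelihood test passed for both. *nlp-2* had an interaction of 3.49 on the log2 scale (SE 0.83, adjusted p = 0.034) on 4 to 39 reads per library. *flp-28* had an interaction of 0.89 (SE 0.18, adjusted p = 0.022). For *nlp-2*, neither effect was itself called (edgeR adjusted p = 0.077 in the *set-26* and 0.29 in the wild-type background). For *flp-28*, the effect in the wild-type background was not called. *W07E11.1*, the gene around *flp-28*, had an interaction of 1.75 (edgeR adjusted p = 0.0049). Of all genes tested, 13.9% passed this test, against 2.53% of the 79.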

How the results depend on the processing

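With another setting, counts of called genes moved as follows. In *set-26* against N2, 1 gene in place of 0 was called by DESeq2 and with no filter. In the double mutant against N2, 1 in place of 2 was called with 20 reads asked in every library and in a fit to the compared libraries alone, and against *set-26* 1 in place of 2 by DESeq2. In *set-26* against *set-9*, 1 in place of 0 was called by DESeq2 and with no filter, and in the interaction 1 in place of 2 with 20 reads asked in every library. With 1 library left out, the counts lay between 0 and 1 (double mutant against N2), 0 and 2 (against *set-26*), 1 and 5 (against *set-9*) and 0 and 3 (interaction), and stayed at 0 in the remaining comparisons. No value changed sign among the genes called. RLE and upper quartile scaling moved the median of all genes by no more than -0.0652 (log2, interaction). Medians of the 79 stayed within 0.16 to 0.25 in *set-26* and 0.06 to 0.12 in *set-9* against N2, -0.3 to -0.13 in the double mutant against *set-26*, -0.17 to -0.02 against *set-9* and -0.39 to -0.23 in the interaction, and crossed 0 in the double mutant against N2 (-0.07 to 0.06). The cause of these shifts was not tested.

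Replicate numbers were not taken to pair the libraries. Over all genes, deviations of same-numbered libraries correlated at 0.136 to 0.205 among *set-26*, *set-9* and N2 (0.103 to 0.376 over the members), but at 0.0464 to 0.0618 between the double mutant and each of these (-0.134 to -0.123 over the members). A fit with a replicate block called 8 genes in place of 4 in the double mutant against *set-9* and 1 in place of 0 in *set-26* against *set-9*, with the other counts within 1.5 times. With 2 libraries per genotype and a median of 138 reads per member, changes under about 1 log2 unit were within the intervals of many members.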
